A study of Homo sapiens with 3 samples.

Results

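Heat shock proteins and their DNAJ co-chaperones were followed across 3 RNA sequencing libraries of MCF10Ca1h, a carcinoma-forming derivative of the MCF10A human breast epithelial line. The members were chosen by gene symbol: protein-coding genes that begin with DNAJA, DNAJB, DNAJC, HSPA, HSPB, HSPD1, HSPE1, HSPH1 or HSP90, without HSPBAP1, HSPBP1 and hyphenated readthrough genes. This gave 71 genes among the 56632 gene IDs in the tables, 27 heat shock protein genes and 44 DNAJ genes. The GSK484 library came from cells given GSK484, an inhibitor of PADI4, for 72 h. PADI4 is an enzyme that deiminates arginine to citrulline in histones and elsewhere. The series title asks about its part in breast cancer stem cells. The CON library came from cells kept with a control compound for the same 72 h, and the NT library from untreated cells with no time given. The labels and the deposited table name that compound differently, so it is called the control compound here. No doses are given, and the cells of all 3 libraries grew in DMEM/F12 medium with 5% horse serum. Each group was 1 library, so every difference below is between 2 single libraries, with no replicate spread and no test of a condition.

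Heat shock proteins bind unfolded or immature proteins and help them fold, move between compartments or be degraded. HSP70 proteins work in cycles of ATP hydrolysis. A DNAJ protein delivers the client and starts hydrolysis, and a nucleotide exchange factor such as HSPH1 ends the cycle. HSP90 acts later on kinases, steroid receptors and other clients, many of which tumour cells depend on. Several cytosolic members are known to respond to heat through HSF1 at heat shock elements. Some members of the endoplasmic reticulum are known to respond to unfolded proteins through ATF6 at stress elements.

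The total expected count was between 70555229 and 92980847 per library. Each difference was taken on CPM (counts scaled to library size with TMM factors) and each level on deposited TPM (transcript abundance per length). A member counted as measured where it reached 1 CPM in at least 1 library, which held for 56 of the 71, against 13312 of all gene IDs. PADI4 itself stood at 0.603 CPM in GSK484, against 0.680 in CON and 0.659 in NT, below that minimum. The cells expressed breast epithelial genes, with 13 of 13 listed markers measured and summed TPM of 11784 in GSK484, against 10619 in CON and 11205 in NT. Their levels were uneven. KRT8 and KRT18 were the highest, at 4062 and 4256 TPM in GSK484, and KRT19 was the lowest, at 2.69 TPM in GSK484, against 3.17 in CON and 3.73 in NT. Of 10 leukocyte markers 2 were measured (CD14 and ITGAM) and 5, with PTPRC among them, had a count of 0 in every library. Of 8 fibroblast markers 3 were measured (COL1A1, FAP and THY1) with COL3A1, DCN and LUM at 0, and of 7 endothelial markers 1 was measured, CDH5. The summed TPM of these 3 lists ranged from 0.490 to 0.650 for endothelial, 5.91 to 7.25 for leukocyte and 11.7 to 15.4 for fibroblast markers.

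The annotated promoters of several abundant members hold the elements named above, and these stretches are shown because they carry the elements of the main folding genes, whose folds differed. Capitals mark the matches. A heat shock element was read as GAA, any 2 bases, TTC, any 2 bases and GAA, or its reverse complement. The endoplasmic reticulum stress element was read as CCAAT, 9 bases of any kind and CCACG, or its reverse complement. The sequences come from RefSeq on build GRCh38.p14, which is not the build of the deposited tables, and each is written on the strand of its gene.
HSP90AA1, chr14:102087045-102087294, minus strand: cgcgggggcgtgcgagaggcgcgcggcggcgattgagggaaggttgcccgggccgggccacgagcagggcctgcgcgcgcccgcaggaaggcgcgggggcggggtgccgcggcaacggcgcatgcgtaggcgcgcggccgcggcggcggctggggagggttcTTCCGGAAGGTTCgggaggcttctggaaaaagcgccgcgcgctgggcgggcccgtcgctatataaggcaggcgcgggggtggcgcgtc
HSP90AB1, chr6:44247693-44247942, plus strand: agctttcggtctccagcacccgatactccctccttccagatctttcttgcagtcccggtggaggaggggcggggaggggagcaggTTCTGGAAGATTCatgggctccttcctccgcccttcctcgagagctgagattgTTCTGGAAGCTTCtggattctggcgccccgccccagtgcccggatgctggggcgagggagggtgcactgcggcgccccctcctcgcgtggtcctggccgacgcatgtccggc
HSPD1, chr2:197500031-197500090, minus strand: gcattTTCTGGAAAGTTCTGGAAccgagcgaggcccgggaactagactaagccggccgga
HSPA8, chr11:123062137-123062245, minus strand: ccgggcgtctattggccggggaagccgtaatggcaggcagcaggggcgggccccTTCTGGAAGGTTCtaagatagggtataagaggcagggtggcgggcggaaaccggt
DNAJA1, chr9:33025203-33025292, plus strand: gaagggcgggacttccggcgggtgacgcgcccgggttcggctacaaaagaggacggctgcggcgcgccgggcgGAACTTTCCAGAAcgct
HSPA5, chr9:125241344-125241460, minus strand: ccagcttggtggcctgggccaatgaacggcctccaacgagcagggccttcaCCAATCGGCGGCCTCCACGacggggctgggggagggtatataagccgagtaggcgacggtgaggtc
HSP90B1, chr12:103930205-103930344, plus strand: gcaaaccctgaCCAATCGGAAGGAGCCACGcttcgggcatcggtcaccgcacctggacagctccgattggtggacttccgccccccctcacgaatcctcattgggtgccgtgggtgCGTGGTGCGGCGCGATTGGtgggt

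Those for HSP90AA1 and HSP90AB1 run over the 250 bases before the start site, the HSPD1 stretch is the far end of its window, and the DNAJA1 stretch crosses the start. HSP90AA1, the stress-inducible cytosolic HSP90, has 1 heat shock element from base -88 to -76 of one of its 2 annotated starts. HSP90AB1, its constitutive counterpart, has 2 at one of its 3 annotated starts. HSPA8, the constitutive cytosolic HSP70, has 2 in its window, of which the nearer is shown. HSPD1, the mitochondrial chaperonin, has 2 overlapping matches at one of its 2 annotated starts. HSPA5 and HSP90B1, the main HSP70 and HSP90 of the endoplasmic reticulum, carry 1 and 2 stress elements. A promoter of 300 bases was on hand for 63 members, and 7 of them held a heat shock element (HSP90AA1, HSP90AB1, HSPD1, HSPA8, HSPA6, DNAJA1 and DNAJB6). Over all 27305 genes with such promoters the share was 0.608%. The stress element was found in 2 of the 63 members, against 0.0916% of all genes. DNAJB1, HSPH1, HSPA1A and HSPA1B, which are known to respond to heat, held no match to these exact letters in these windows, and this says nothing of the factor.

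**Figure D1:**
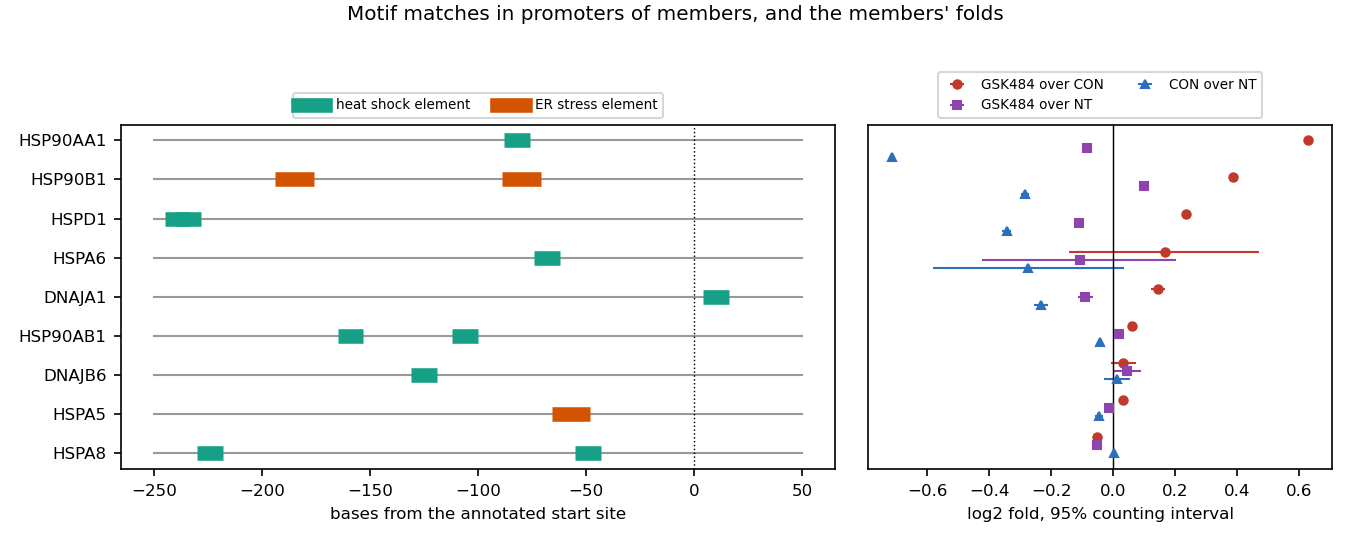
Left, position of heat shock elements and endoplasmic reticulum stress elements in the 300-base promoters of the 9 members with a match, in bases from the annotated start site. Right, log2 fold of each of these genes in the 3 comparisons, with 95% counting intervals. HSP90AA1 and HSP90AB1 both hold heat shock elements and differ by 0.63 and 0.06 between GSK484 and CON.

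The members together took 1.04% of all TPM in GSK484, against 0.916% in CON and 1.06% in NT. Heat shock protein genes made up most of this, at summed TPM of 8963 in GSK484, against 7806 in CON and 9093 in NT. The DNAJ genes summed to 1482 TPM in GSK484, against 1354 in CON and 1470.2 in NT. The 10 most abundant members held 82.1% of the summed TPM averaged over the libraries. HSPA8 was the highest in every library, at 2080 TPM in GSK484, against 2001 in CON and 2180 in NT. HSP90AB1 came next with 1405 TPM in GSK484, against 1249 in CON and 1401 in NT. HSP90AA1 had 1233 TPM in GSK484, against 736 in CON and 1315 in NT, which made it the third member in GSK484 and NT and the fourth in CON. HSPB1, a small heat shock protein that holds unfolded clients, took the third place in CON with 1001 TPM, against 954 in GSK484 and 864 in NT.

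Among the HSP70 genes, BiP and the mitochondrial form stood above each of the inducible cytosolic genes. HSPA5 (BiP) had 451 TPM in GSK484, against 408 in CON and 458 in NT, and HSPA9, the mitochondrial HSP70, had 247 TPM in GSK484, against 214 in CON and 255 in NT. The near-identical inducible genes HSPA1A and HSPA1B, whose reads the counting had to divide, summed to 222 TPM in GSK484, against 195 in CON and 213 in NT. HSPA6, a strictly stress-induced HSP70 of human cells, was close to silent at 1.07 TPM in GSK484, against 0.880 in CON and 1.16 in NT. HSPA2, known from the testis, had 0.760 TPM in GSK484, against 0.830 in CON and 0.710 in NT.

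Of the DNAJ genes, DNAJA1, a main cytosolic partner of HSP70, was the highest, with 263 TPM in GSK484, against 228 in CON and 279.5 in NT. DNAJB11, which serves BiP in the endoplasmic reticulum, had 181 TPM in GSK484, against 163 in CON and 159 in NT. DNAJB1, the heat-inducible DNAJ of the cytosol, had 129 TPM in GSK484, against 126 in CON and 130.1 in NT. DNAJC7 and DNAJC8 led the DNAJC class, with mean TPM over the libraries of 102 and 98.1. DNAJC7 is a cytosolic co-chaperone with tetratricopeptide repeats, and DNAJC8 is a nuclear protein of the spliceosome.

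The 15 members that did not reach 1 CPM were DNAJA4, DNAJB7, DNAJB8, DNAJB13, DNAJC5B, DNAJC5G, DNAJC12, DNAJC28, HSPA1L, HSPA12B, HSPB2, HSPB3, HSPB6, HSPB7 and HSPB8. The highest of them was DNAJC12, at 0.886 CPM in GSK484, against 0.943 in CON and 0.954 in NT. DNAJB8, DNAJC5B, DNAJC5G, HSPB3, HSPB7 and HSPB8 had a count of 0 in every library. With 0 counts, the floor of 3 counts stands at 0.0385 CPM in GSK484, against 0.0329 in CON and 0.0421 in NT. The small heat shock protein genes known from muscle were thus at or near 0, and HSPB1 and HSPB11 were the 2 measured of 7. HSPB11, also called IFT25, is a part of the intraflagellar transport complex that carries the family name.

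**Figure D2:**
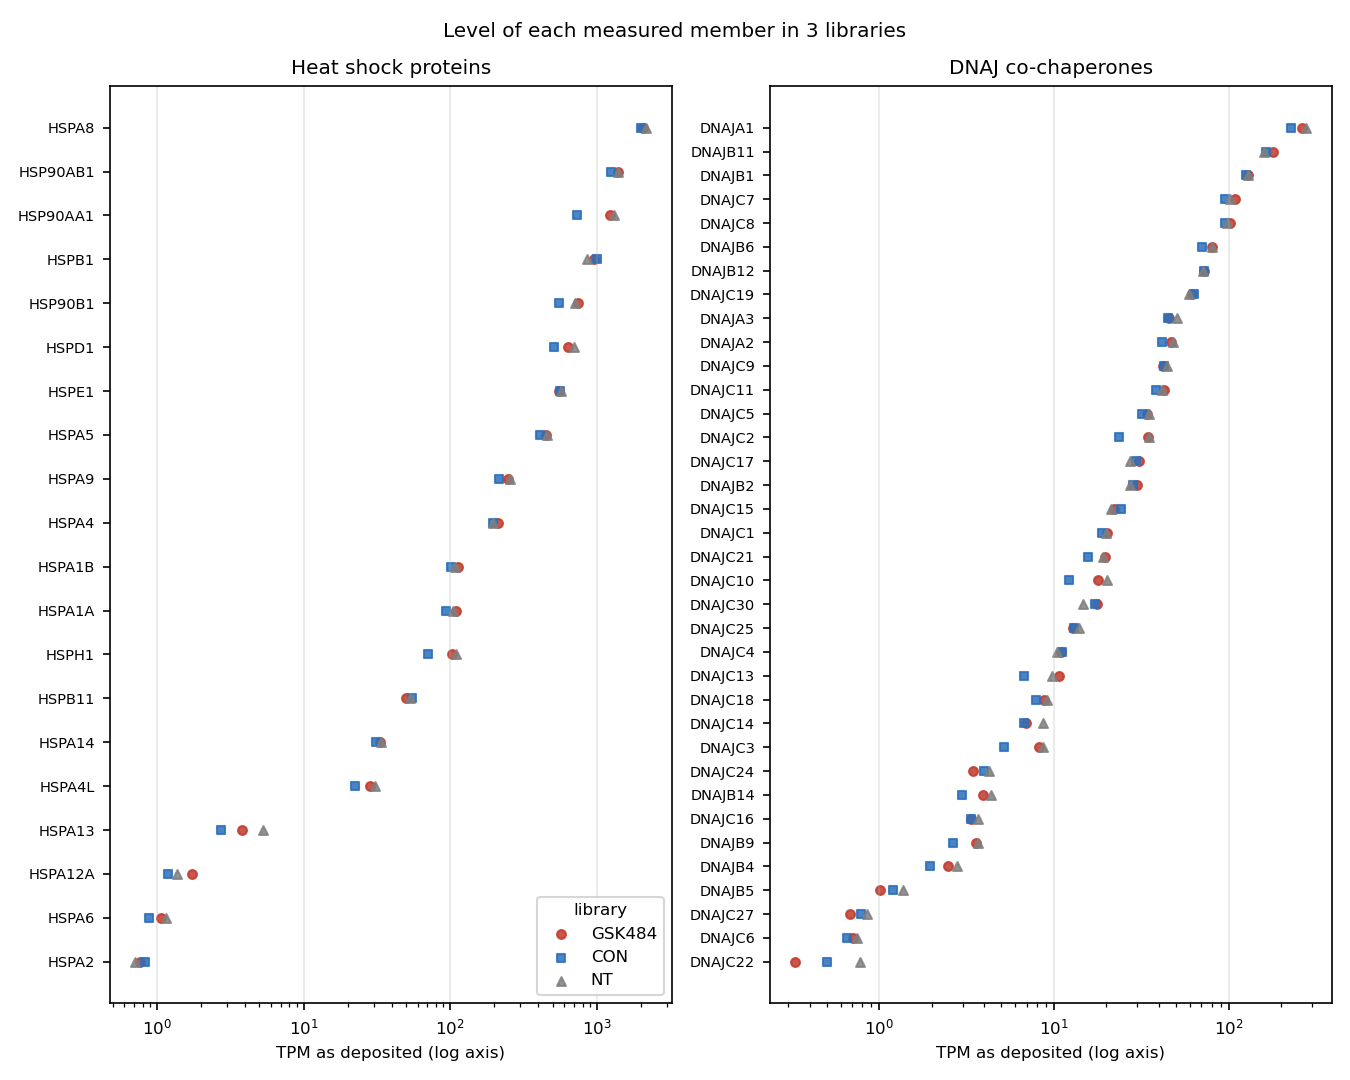
Deposited TPM of each measured member on a log axis, heat shock proteins on the left and DNAJ co-chaperones on the right, with 1 point per library (GSK484, CON and NT). Levels span from 2180 TPM for HSPA8 in NT to 0.33 TPM for DNAJC22 in GSK484, and the CON point of HSP90AA1 lies to the left of the other two.

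GSK484 against CON sets the PADI4 inhibitor against the control compound at 72 h. No member differed by 2-fold or more, while 0.47% of all 13199 genes compared did so in either direction. By a smaller rule, one library at least 25% above the other with a 95% counting interval that leaves out no difference, 11 of 55 compared members were higher in GSK484 (20%), and 9.0% of all genes were. No member was lower by that rule, against 4.45% of all genes. The higher members were HSP90AA1, HSP90B1, HSPH1, HSPA4L, HSPA12A, HSPA13, DNAJC2, DNAJC3, DNAJC10, DNAJC13 and DNAJB14. At any fold beyond counting error, 23 members were higher (41.8%, all genes 26.9%) and 10 were lower (18.2%, all genes 27.4%). The median log2 fold was 0.03 over the members and -0.01 over all genes. Intervals cover counting error only, not the spread between cultures, and in bulk RNA fewer expressing cells and less RNA per cell cannot be told apart.

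The folds of measured protein-coding genes differed with base composition. In the GC-poorest of 6 equal groups of these genes (30.2% to 40.1% GC in the longest transcript), the median log2 fold was 0.19. That of the 12 members in the group was 0.35. In the next group, from 40.1% to 43.8% GC, the medians were 0.05 for the protein-coding genes and 0.09 for 12 members. In the remaining 4 groups, in order of rising GC, the medians of the protein-coding genes were -0.03, -0.05, -0.04 and -0.02. Those of the members were 0.01 (12 members), -0.12 (7 members), -0.01 (11 members) and -0.03 (2 members), so members did not lie above in every group. With a smooth trend on GC content and effective length removed, 6 of the 11 members stayed past the 25% rule: HSP90AA1, HSPH1, HSPA4L, HSPA12A, DNAJC2 and DNAJC3. That is 10.9% of the members, against 5.38% of all genes, and no member was lower, against 4.29% of all genes. Beyond counting error, 21 members were higher with the trend removed (38.2%, all genes 25.7%) and 13 lower (23.6%, all genes 25.5%). The part of base composition in the members' folds was not tested beyond this removal.

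The HSP90 genes separated from each other. HSP90AA1 (ENSG00000080824) had 3302 CPM in GSK484, against 2136 in CON and 3504 in NT. CON was thus the low library, and GSK484 was 1.55-fold above it (log2 fold 0.63, interval 0.62 to 0.64; 0.59 with the trend removed). HSP90B1 had 1458 CPM in GSK484, against 1116 in CON and 1360.0 in NT, again lowest in CON, with a log2 fold of 0.39 for GSK484 against CON (interval 0.37 to 0.40; 0.29 with the trend removed). HSP90AB1 (ENSG00000096384) stayed level, at 2872 CPM in GSK484, against 2755 in CON and 2837 in NT (log2 fold 0.06, interval 0.05 to 0.07). The TPM ratio of HSP90AA1 over HSP90AB1 was accordingly 0.877 in GSK484, against 0.589 in CON and 0.939 in NT. Reads of HSP90AA1 were divided with other genes. After that division its 5 named pseudogenes held counts equal to 0.0959% to 0.112% of its own. How many of its reads were shared was not measured.

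The HSP110-class exchange factors of HSP70 were all higher in GSK484 than in CON. HSPH1 had 233 CPM in GSK484, against 160.2 in CON and 245 in NT (log2 fold 0.54, interval 0.51 to 0.57; 0.40 with the trend removed), and its counts were whole in all 3 libraries. HSPA4L had 60.7 CPM in GSK484, against 42.2 in CON and 72.7 in NT (log2 fold 0.52, interval 0.46 to 0.59; 0.34 with the trend removed). HSPA4, the most abundant of the 3 by TPM, differed less, at 452 CPM in GSK484, against 422 in CON and 473 in NT (log2 fold 0.10, interval 0.08 to 0.12; 0.03 with the trend removed). On CPM all 3 were lowest in CON. For HSPA4 this depended on the reading. Its log2 fold for CON against NT was -0.16, or 0.01 with the trend removed (interval -0.01 to 0.04). Its TPM was 211 in GSK484, against 195.8 in CON and 196.9 in NT. The TPM of HSPA4 over that of HSPH1 was 2.05 in GSK484, against 2.75 in CON and 1.80 in NT.

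The cytosolic HSP70 genes, by contrast, were close to level. HSPA8 had 3303 CPM in GSK484, against 3428 in CON and 3423 in NT, a log2 fold of -0.05 for GSK484 against CON (interval -0.06 to -0.05). HSPA1A had 207 CPM in GSK484, against 192 in CON and 198 in NT (log2 fold 0.11), and HSPA1B had 226 CPM in GSK484, against 218 in CON and 215 in NT (log2 fold 0.05). As the split between these 2 copies is uncertain, their sum is the safer reading, at 433 CPM in GSK484, against 410.3 in CON and 413 in NT (log2 fold 0.08, interval 0.06 to 0.10). HSPA14, which binds ribosomes with DNAJC2, had 55.1 CPM in GSK484, against 57.0 in CON and 54.4 in NT (log2 fold -0.05, interval -0.11 to 0.01). HSPA2 had 1.62 CPM in GSK484, against 1.76 in CON and 1.51 in NT, and HSPA6 had 2.25 CPM in GSK484, against 2.01 in CON and 2.43 in NT. Their log2 folds were -0.13 (interval -0.47 to 0.22) and 0.17 (interval -0.14 to 0.47), so neither differed beyond counting error. HSPA12A, a distant relative of the family, stood apart with 8.23 CPM in GSK484, against 5.87 in CON and 5.89 in NT (log2 fold 0.49, interval 0.32 to 0.66; 0.44 with the trend removed). GSK484 was its high library, with CON and NT together below.

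HSPA5 had 1437 CPM in GSK484, against 1405 in CON and 1452 in NT (log2 fold 0.03, interval 0.02 to 0.04; -0.01 with the trend removed), and HSPA9 had 624 CPM in GSK484, against 587 in CON and 642 in NT (log2 fold 0.09, interval 0.07 to 0.10; 0.02 with the trend removed). HSPA13, a microsomal HSP70 that lacks the client-binding domain, had 10.6 CPM in GSK484, against 8.0 in CON and 13.3 in NT (log2 fold 0.40, interval 0.26 to 0.55). With the trend removed its log2 fold was 0.09, no longer past the 25% rule. HSP90B1 and HSPA5 share a compartment, yet their TPM ratio was 1.66 in GSK484, against 1.34 in CON and 1.54 in NT. In mitochondria, the chaperonin ring gene HSPD1 had 1158 CPM in GSK484, against 985 in CON and 1251 in NT (log2 fold 0.23, interval 0.22 to 0.25; 0.22 with the trend removed). HSPE1, the lid of that ring and the gene next to HSPD1 in a head-to-head pair, had 357 CPM in GSK484, against 394 in CON and 359.9 in NT (log2 fold -0.14, interval -0.16 to -0.12; 0.01 with the trend removed). On CPM HSPD1 was lowest and HSPE1 highest in CON. On TPM HSPE1 had 550.4 in GSK484, against 564 in CON and 569.5 in NT, so its highest library depended on the unit. The TPM of HSPD1 over HSPE1 was 1.16 in GSK484, against 0.900 in CON and 1.22 in NT. Up to 0.422% as many reads went to 18 named HSPD1 pseudogenes, and up to 0.291% to 23 of HSPE1.

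Both small heat shock protein genes were below CON in the GSK484 library. HSPB1 had 604 CPM in GSK484, against 678 in CON and 535 in NT, highest in CON (log2 fold -0.17, interval -0.19 to -0.15; -0.07 with the trend removed). HSPB11 had 23.0 CPM in GSK484, against 26.1 in CON and 23.3 in NT (log2 fold -0.18, interval -0.27 to -0.09; 0.01 with the trend removed).

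**Figure D3:**
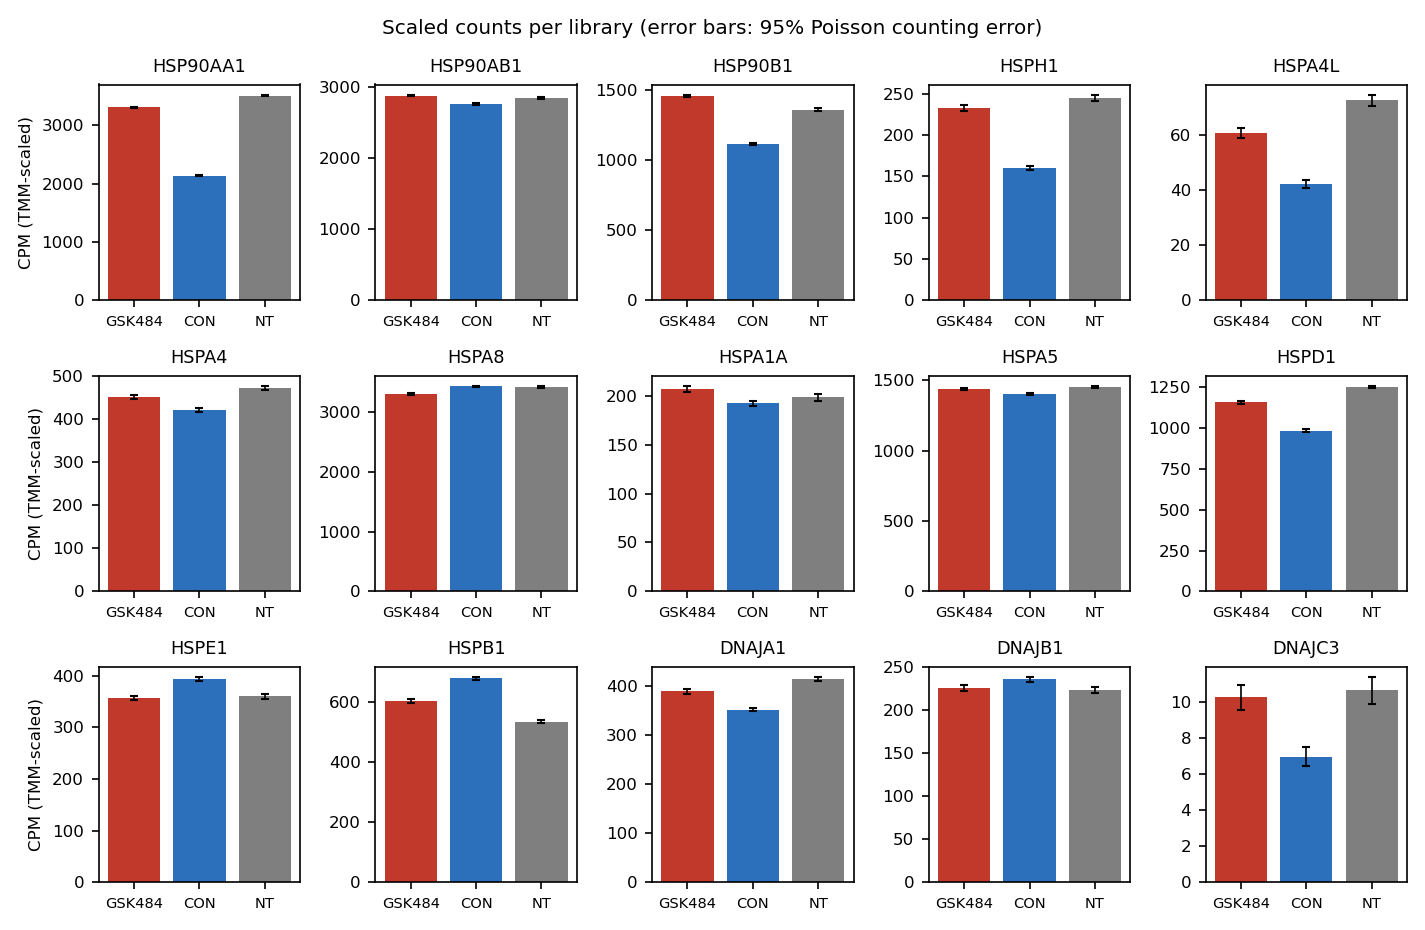
TMM-scaled CPM of 15 members in GSK484, CON and NT, 1 library each, with 95% Poisson counting error as bars. CON is the lowest bar for HSP90AA1 (2136), HSPH1 (160.2) and HSPA4L (42.2) and the highest for HSPB1 (678), while HSP90AB1, HSPA8 and HSPA5 are near level.

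The DNAJ genes of the endoplasmic reticulum split by gene. DNAJC3, an inhibitor of the stress kinase PERK that also binds BiP, had 10.3 CPM in GSK484, against 6.98 in CON and 10.6 in NT (log2 fold 0.55, interval 0.40 to 0.71; 0.47 with the trend removed). DNAJC10, a reductase that helps misfolded proteins leave the compartment, had 66.6 CPM in GSK484, against 47.6 in CON and 74.2 in NT (log2 fold 0.48, interval 0.43 to 0.54). DNAJB14, a membrane-bound form, had 13.4 CPM in GSK484, against 9.0 in CON and 15.9 in NT (log2 fold 0.57, interval 0.44 to 0.71). With the trend removed, the folds of DNAJC10 and DNAJB14 were 0.23 each. DNAJB9, a stress-induced DNAJ of the same compartment, had 7.26 CPM in GSK484, against 5.82 in CON and 7.91 in NT, just under the 25% rule (log2 fold 0.32, interval 0.15 to 0.49). DNAJB11 had 216 CPM in GSK484, against 212 in CON and 195 in NT (log2 fold 0.03, interval -0.00 to 0.06). With the trend removed it was lower beyond counting error, at -0.11 (interval -0.14 to -0.08). DNAJB12 had 149.9 CPM in GSK484, against 161.2 in CON and 140.4 in NT (log2 fold -0.10, interval -0.14 to -0.07; -0.09 with the trend removed). Of the 10 genes of this group 4 were higher, 1 was lower and 5 were within counting error, and with the trend removed 4 were higher and 4 lower (all genes 26.9% and 27.4%, or 25.7% and 25.5% with the trend removed).

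Outside that compartment, DNAJC2, the ribosome-bound partner of HSPA14, had 57.2 CPM in GSK484, against 42.2 in CON and 57.2 in NT (log2 fold 0.44, interval 0.38 to 0.50; 0.41 with the trend removed). Its reading was thus the same in GSK484 and NT and lower in CON. DNAJC13, a protein of endosomal sorting, had 42.1 CPM in GSK484, against 30.1 in CON and 54.1 in NT (log2 fold 0.48, interval 0.41 to 0.55; 0.32 with the trend removed, just under the 25% rule). DNAJC21, a factor of ribosome assembly, had 37.4 CPM in GSK484, against 30.5 in CON and 38.6 in NT (log2 fold 0.29, interval 0.22 to 0.37). DNAJA1 had 388 CPM in GSK484, against 351 in CON and 413 in NT (log2 fold 0.14, interval 0.12 to 0.17), and DNAJA2 had 84.5 CPM in GSK484, against 81.2 in CON and 87.9 in NT (log2 fold 0.06, interval 0.01 to 0.10; -0.02 with the trend removed). DNAJB1 had 225 CPM in GSK484, against 236 in CON and 224 in NT (log2 fold -0.06, interval -0.09 to -0.03), and with the trend removed it lay within counting error at -0.01 (interval -0.04 to 0.02). Of the 6 measured mitochondrial DNAJ genes none was higher and 3 were lower: DNAJA3 (-0.12), DNAJC15 (-0.15) and DNAJC19 (-0.14). Of all genes 26.9% were higher and 27.4% lower. With the trend removed the same 3 were lower, at -0.08, -0.28 and -0.18, and none was higher (all genes 25.5% lower and 25.7% higher). DNAJC15 and DNAJC19 sit at the import motor of the inner membrane, and DNAJA3 is a matrix partner of HSPA9.

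DNAJA3 had 90.2 CPM in GSK484, against 98.3 in CON and 98.6 in NT, and DNAJC19 had 36.1 CPM in GSK484, against 39.9 in CON and 35.5 in NT. The most abundant DNAJ genes not yet described were nearly level. DNAJB6, which holds back aggregation of polyglutamine proteins, had 115 CPM in GSK484, against 112 in CON and 111 in NT (log2 fold 0.03, interval -0.01 to 0.07). DNAJC7 had 136 CPM in GSK484, against 128 in CON and 129 in NT (log2 fold 0.09, interval 0.05 to 0.13). DNAJC8 had 113 CPM in GSK484, against 114 in CON and 107 in NT (log2 fold -0.01, interval -0.05 to 0.03). DNAJC22 stayed below 1 CPM in both treated libraries and was not compared here. By class, the 35 compared DNAJ genes had a median log2 fold of -0.01 and the 20 heat shock protein genes one of 0.09.

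**Figure D4:**
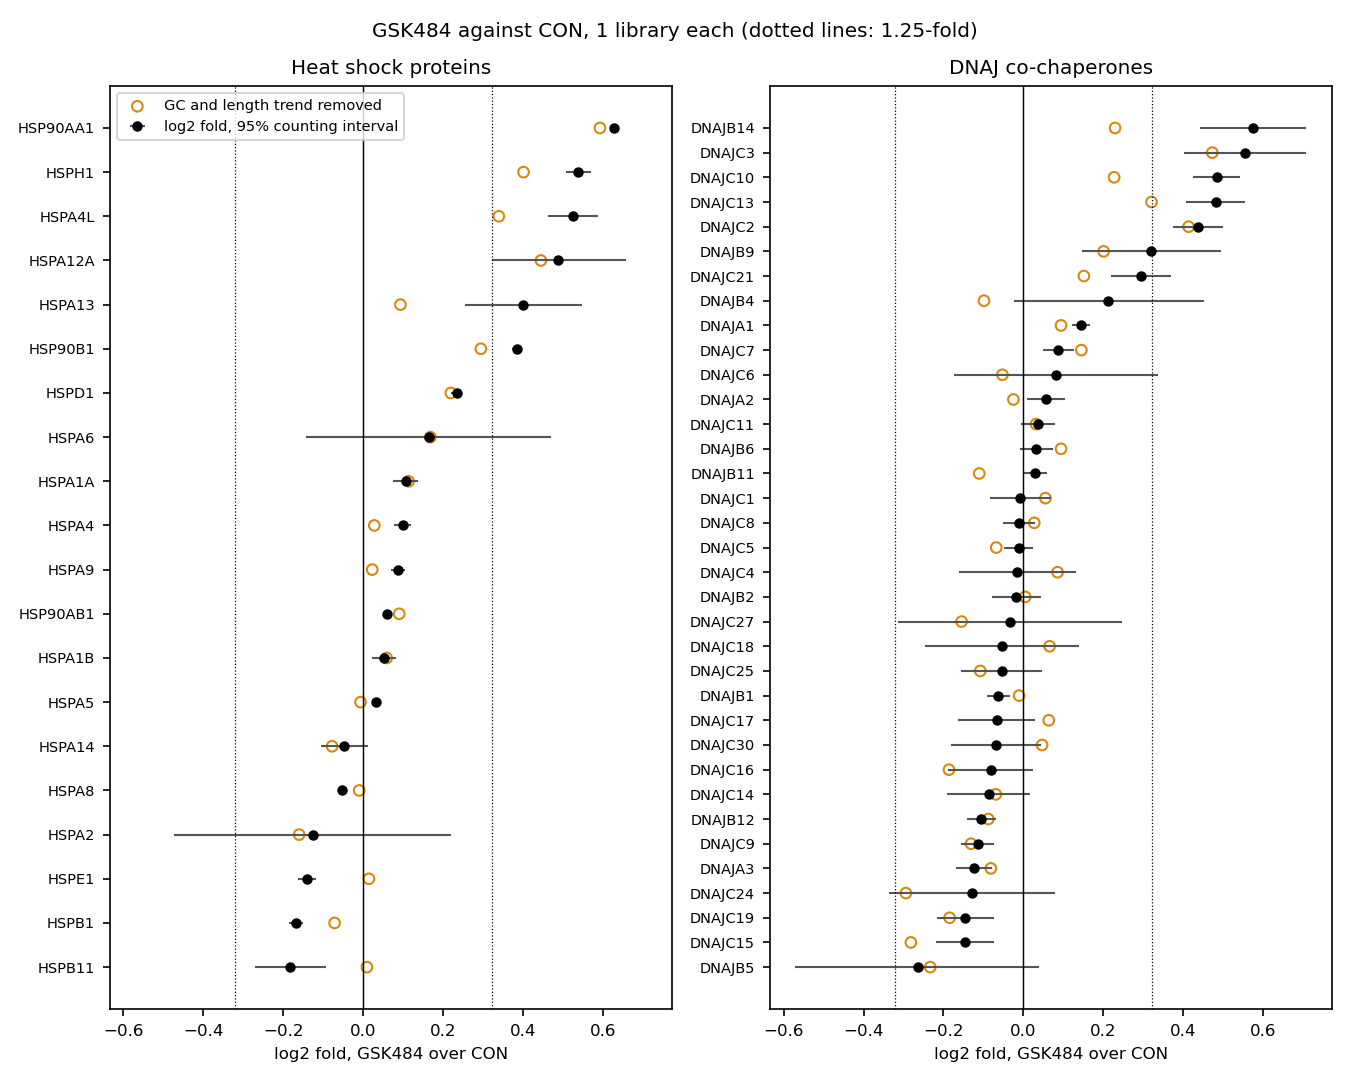
Log2 fold of each compared member in GSK484 over CON (filled points, 95% counting interval as bars) and the same with the GC and length trend removed (open circles). Dotted lines mark a library 25% above the other. HSP90AA1 lies at 0.63 and 0.59 on these readings, and HSPA13 at 0.40 and 0.09.

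On deposited TPM the median log2 fold of all genes was 0.10 for GSK484 against CON, and that of the members 0.14. Against that shift HSP90AA1 (0.74), HSPH1 (0.54) and DNAJC3 (0.65) stayed well above it, and HSP90AB1 (0.17), HSPA5 (0.14) and HSPA8 (0.06) near or below it. DNAJC2 (0.55) and HSPA12A (0.52) were also above it, and HSPA4L less so, at 0.35 on TPM against 0.52 on CPM. The small negative CPM folds of HSPA8, DNAJB1, DNAJA3 and DNAJB12 had positive TPM folds of 0.01 to 0.06, so their sign depended on the unit. On both units these genes lay below the median of all genes (-0.01 on CPM and 0.10 on TPM).

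GSK484 against NT sets treated cells against untreated ones, with the time of NT unknown, so that treatment and any difference in time cannot be told apart. The inhibitor library lay near the untreated one for most abundant members. By the 2-fold rule 1 of 56 members differed (0.545% of all 13209 genes in either direction), namely DNAJC22. This predicted membrane DNAJ was 2.89-fold lower, on counts of 36 in GSK484, against 80 in CON and 96 in NT (log2 fold -1.53, interval -2.14 to -0.98). At 0.462 CPM in GSK484, against 0.877 in CON and 1.35 in NT it only just reached the minimum. By the 25% rule 1 member was higher (1.79%, all genes 5.08%) and 6 were lower (10.7%, all genes 7.38%). Beyond counting error 14 were higher (25%, all genes 27.3%) and 22 lower (39.3%, all genes 29.5%). This balance turned with the trend removed, to 19 higher (33.9%, all genes 23.6%) and 12 lower (21.4%, all genes 22.5%). The median log2 fold was -0.03 over the members, or 0.01 with the trend removed, and -0.00 over all genes.

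HSPA12A was the member higher than NT, with a log2 fold of 0.48 (interval 0.30 to 0.66; 0.56 with the trend removed). The lower ones besides DNAJC22 were HSPA13 (log2 fold -0.33, interval -0.46 to -0.19), DNAJC13 (-0.36, interval -0.43 to -0.29), DNAJC14 (-0.35, interval -0.45 to -0.24), DNAJC24 (-0.40, interval -0.61 to -0.19) and DNAJB5 (-0.35, interval -0.67 to -0.03). DNAJC14 had 17.4 CPM in GSK484, against 18.4 in CON and 22.1 in NT, and DNAJC24, which acts in making diphthamide on elongation factor 2, had 4.39 CPM in GSK484, against 4.80 in CON and 5.79 in NT. DNAJB5 had 1.99 CPM in GSK484, against 2.39 in CON and 2.54 in NT. With the trend removed, DNAJC14, DNAJB5 and DNAJC22 remained (3 members, 5.36%, all genes 3.79%) beside the higher HSPA12A (1.79%, all genes 3.8%). For DNAJC13 the effective length in the deposited tables was 4615 in GSK484, against 4870 in CON and 6536 in NT, and its TPM had the opposite direction, at 10.7 TPM in GSK484, against 6.70 in CON and 9.72 in NT (0.13 on the log2 scale). Its direction against NT thus depended on the unit.

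Of the 11 members past the 25% rule above CON, HSPA12A, HSPA13 and DNAJC13 also passed it against NT, as above. The others lay closer to NT, with log2 folds for GSK484 against NT of -0.09 for HSP90AA1, -0.08 for HSPH1, -0.05 for DNAJC3, -0.00 for DNAJC2, 0.10 for HSP90B1, -0.16 for DNAJC10, -0.25 for DNAJB14 and -0.26 for HSPA4L. Once the trend was removed, the folds of HSPH1 (0.07), DNAJC10 (0.06), DNAJC2 (0.07) and DNAJC3 (0.05) were positive, HSP90B1 was at 0.22, HSP90AA1 and DNAJB14 at -0.00 and HSPA4L at -0.09. These folds share the GSK484 library with those against CON. HSPB1 was higher than in NT by 0.17 (interval 0.16 to 0.19), or -0.02 with the trend removed. The inducible pair HSPA1A and HSPA1B, summed, differed from NT by 0.07 (interval 0.04 to 0.09).

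CON against NT sets the control compound against untreated cells, and compound and time cannot be told apart here either. By the 25% rule it held 16 members, against 11 in GSK484 over CON and 7 in GSK484 over NT. No member passed 2-fold (all 13221 genes in either direction, 1.68%). By the 25% rule 14 of 56 members were lower in CON (25%, all genes 14.5%) and 2 were higher (3.57%, all genes 6.91%). Beyond counting error 25 were lower (44.6%, all genes 29.4%) and 15 higher (26.8%, all genes 35.5%). The median log2 fold was -0.04 over the members and 0.03 over all genes. The GC-poorest group of genes lay farthest from 0 in this comparison, with a median of -0.37 over its protein-coding genes and -0.56 over its 12 members. With the trend removed 8 members were lower (14.3%, all genes 6.47%) and 2 higher (3.57%, all genes 4.98%). Beyond counting error, 26 were then lower (46.4%, all genes 25.7%) and 14 higher (25%, all genes 27.2%).

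HSP90AA1 was 1.64-fold lower in CON than in NT (log2 fold -0.71, interval -0.72 to -0.71; -0.60 with the trend removed). HSPH1 followed with -0.61 (interval -0.65 to -0.58; -0.33 with the trend removed) and HSPA4L with -0.78 (interval -0.84 to -0.72; -0.43 with the trend removed). DNAJC3 had -0.61 and DNAJC2 -0.44, or -0.43 and -0.34 with the trend removed. HSPD1 had -0.34 (interval -0.36 to -0.33; -0.26 with the trend removed), and DNAJC13 had -0.84 (interval -0.91 to -0.77; -0.51 with the trend removed). For HSPA13 (-0.73), DNAJC10 (-0.64), DNAJB14 (-0.82), DNAJB9 (-0.44), DNAJC21 (-0.34) and DNAJB4 (-0.52) the fold with the trend removed was between -0.23 and 0.00, also no longer past the rule. DNAJB4 had 3.77 CPM in GSK484, against 3.26 in CON and 4.66 in NT. DNAJC22 had -0.62 (interval -1.07 to -0.18). The 2 higher genes were HSPB1 (log2 fold 0.34, interval 0.32 to 0.36) and DNAJC30 (0.36, interval 0.24 to 0.49), a mitochondrial protein with 15.3 CPM in GSK484, against 16 in CON and 12.4 in NT. With the trend removed they had 0.05 and 0.16. DNAJC15 (0.43) and DNAJB11 (0.39) were then the higher members, and HSPA6 (-0.33) joined the lower ones, on values near 2 CPM. HSPA8 (0.00), HSPA5 (-0.05), HSP90AB1 (-0.04), DNAJB1 (0.07) and HSPA1A with HSPA1B (-0.01) stayed within 0.10 of NT on CPM.

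Since the 3 comparisons share libraries, a low value in CON shows in both GSK484 against CON and CON against NT. The order of the libraries was taken on CPM with the GC and length trend in place. The 2 GC-poorest groups held 12 members each, and their protein-coding genes had medians of -0.37 and -0.14 for CON against NT. The part of base composition in this order was not tested. CON was the lowest library for 26 of 56 members (46.4%), against 32.9% of all measured genes. NT was the highest for 28 members (50%, all genes 36.1%), and GSK484 the highest for 10 (17.9%, all genes 24.7%). For 35 of 56 members the highest CPM was at most 25% above the lowest, a smaller share than of all genes (62.5%, all genes 70.2%). Within 1.1 times lay 20 members (35.7%, all genes 28.8%). By role, summed TPM of HSP90 genes was 3384 in GSK484, against 2534 in CON and 3423 in NT, the widest gap in TPM of any role. For cytosolic HSP70 genes it was 2339 TPM in GSK484, against 2231 in CON and 2431 in NT. The mitochondrial DNAJ genes summed to 201 TPM in GSK484, against 200.1 in CON and 199 in NT, the narrowest range, and the small heat shock proteins to 1004 TPM in GSK484, against 1056 in CON and 917 in NT.

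Other genes of the pathway gave the setting. HSF1, the heat shock factor, had 91.0 CPM in GSK484, against 94.2 in CON and 81.0 in NT (log2 fold -0.05 for GSK484 against CON, interval -0.09 to -0.00; 0.17 against NT, interval 0.12 to 0.22). Its inhibitor HSBP1 had 113 CPM in GSK484, against 116 in CON and 111 in NT. Of 16 HSF1 targets and partners outside the rule, 2 were higher in GSK484 than in CON beyond counting error, 5 were lower and 9 were within it, with a median of -0.00 (26.9% of all genes were higher and 27.4% lower). After removal of the trend 6 were higher and 4 lower (all genes 25.7% and 25.5%), so the balance depended on the trend. The higher were CHORDC1, an HSP90 partner (46.9 CPM in GSK484, against 36.8 in CON and 54.5 in NT; log2 fold 0.35, interval 0.28 to 0.42), and RGS2 (8.04 CPM in GSK484, against 6.18 in CON and 7.55 in NT; log2 fold 0.38, interval 0.21 to 0.54). MRPL18 (-0.16) and SERPINH1 (-0.11) were the lower ones of largest fold. BAG3, a well-known heat-induced target, had 145 CPM in GSK484, against 146 in CON and 147 in NT, and STIP1, which links HSP70 to HSP90, had 380.2 CPM in GSK484, against 379 in CON and 387 in NT.

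Among 33 co-chaperones of HSP90 and HSP70, 10 were higher in GSK484 than in CON, 6 lower and 17 within counting error, with a median of 0.02. There were 13 higher and 5 lower with the trend removed. For this and the next 3 lists the shares over all genes were 26.9% higher and 27.4% lower, or 25.7% and 25.5% with the trend removed. FNIP1, an inhibitor of the HSP90 ATPase, had a log2 fold of 0.39 (interval 0.24 to 0.54), CDC37L1 of 0.19 and BAG4 of 0.14. Of the 14 TRiC and prefoldin genes 3 were higher and 9 lower, with a median of -0.04. After removal of the trend 6 were higher and 3 lower, with a median of 0.02 (all genes 0.00), so the direction depended on the trend. On TPM the median of the list was 0.07, below the 0.10 of all genes. On CPM it was likewise below that of all genes (-0.01). CCT8 stood out at 451 CPM in GSK484, against 357 in CON and 446 in NT (log2 fold 0.34, interval 0.32 to 0.36), again lowest in CON, while PFDN1 (-0.14), PFDN4 (-0.13) and PFDN6 (-0.13) were lower. Endoplasmic reticulum folding genes had 6 higher and 12 lower of 22 compared, with a median of -0.05, or 5 higher and 7 lower with the trend removed. SEL1L (0.25) and ERO1B (0.28) were higher, and SEC61B (-0.18) and DDIT3 (-0.21) lower. Of 16 mitochondrial import and protease genes 3 were higher and 7 lower, with a median of -0.02, or 2 higher and 7 lower with the trend removed. YME1L1 (0.21) and CLPB (0.14) were higher, and TIMM44 (-0.15) and HTRA2 (-0.12) lower.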

How the data were processed

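Sequencing of total RNA measured gene expression in 3 libraries, 1 per group. RNA was isolated with TRIzol and turned into stranded total RNA libraries, per the labels' protocols. Per the submitters' processing notes RSEM and hg19 were used. The RSEM version, annotation and strand setting were not given in the sources used here. Genes that overlap an antisense gene are therefore uncertain.

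Per the file headers, the authors deposited 1 table of RSEM output per library. Its deposited expected counts are RSEM's estimates of reads per gene and need not be whole. Its deposited TPM is transcript abundance per effective length, scaled to a fixed total. The deposited effective length, in bases, served for description.

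Members and gene lists were chosen with earlier results of these data known. Expected counts were scaled to CPM with TMM factors of 1.01, 0.981 and 1.01 for GSK484, CON and NT, from edgeR 4.0.16 in R 4.3.3. Log2 folds used a prior count of 0.5 on expected counts. Intervals are 95% Clopper-Pearson bounds, conditional on the summed count of both libraries, on counts rounded to whole numbers, from SciPy 1.17.1. PCR copies cannot be separated, so intervals and floors cover counting error only. A gene was compared where the larger of both libraries had 1 CPM. Differences were read at 3 levels: 2-fold, one library at least 25% above the other, and any fold beyond counting error. Both rules of size also needed an interval that leaves out no difference. With 1 library per group there was no test. The interval script was tested on simulated data. A smooth trend over GC and the mean effective length (natural splines with 4 degrees of freedom each) was fitted on 8656 protein-coding genes with a mean of at least 10 CPM. Names, gene types and GC content came from GENCODE release 29 and a gene name table, by gene ID, and 50276 of 56632 IDs had a symbol. Counts whole within 0.005 in all 3 libraries were called whole, which held for 26 measured members, and the reads of 30 were divided.

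Members named with full values were all measured heat shock protein genes, every DNAJ gene past the 25% rule in any comparison, the 3 most abundant of DNAJA, DNAJB and DNAJC, the 3 largest and 3 smallest folds of each comparison by the bound nearest to no difference, and 6 genes given by name. Of each other list, up to 4 genes with the largest fold between GSK484 and CON beyond counting error were named, with HSF1 and PADI4. DNAJC12, DNAJC15, HSBP1, BAG3, STIP1 and the cell type markers named outside that rule were chosen after their values were seen. The alternatives were total-count and DESeq2 1.42.0 median-of-ratios scaling, deposited TPM with a pseudocount of 0.1, a minimum of 5 CPM or none, a prior count of 2, whole counts only and the trend removed. HSPB9, MSANTD7, TIMM23 and PECAM1 were not analysed here.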

Additional observations from a re-analysis of the deposited data

How the results depend on the processing

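No paired analysis was possible because each group was 1 library, and no library could be left out. By the 25% rule, removing the GC and length trend left 6 members for GSK484 against CON (6 higher, 0 lower), 4 for GSK484 against NT (1 higher, 3 lower) and 10 for CON against NT (2 higher, 8 lower), against 11, 7 and 16 without it. Over all genes the shares past that rule went from 9.0% to 5.38% higher and 4.45% to 4.29% lower for GSK484 against CON. For GSK484 against NT they went from 5.08% to 3.8% higher and 7.38% to 3.79% lower. For CON against NT they went from 6.91% to 4.98% higher and 14.5% to 6.47% lower. Removing the trend also put DNAJB4 at 0.00 in CON against NT (0.00019). On deposited TPM the members' median was 0.14 for GSK484 against CON (all genes 0.10) and -0.16 for CON against NT (all genes -0.08), and DNAJC13 reversed to 0.13 in GSK484 against NT. With whole counts only, the median for CON against NT was -0.11 (26 members, all genes 0.01). The 2-fold count for GSK484 against NT was 0 at a minimum of 5 CPM and 2 with no minimum (1 higher, 1 lower), and for CON against NT 2 with no minimum, both higher and both below 1 CPM. At the minimum of 1 CPM these counts were 1 and 0 (all genes 0.545% and 1.68%). Shares of all genes at the other minimums are not given here. Of 128 folds of named members, a prior count of 2 and no minimum moved none past counting error, total counts moved 36, median-of-ratios scaling 11, deposited TPM 70 and the trend 88; both reversals above are of folds past the 25% rule. Of the 96 such folds that lay beyond counting error at any size, the sign turned for 10 on deposited TPM and for 21 with the trend removed, and for 0 under the other 5 settings. The 10 were DNAJA3, DNAJB1, DNAJB12 and HSPA8 in GSK484 against CON, DNAJC13 and HSPA4 in GSK484 against NT, and DNAJB1, DNAJC8, HSPA14 and HSPE1 in CON against NT. The 21 were 4, 8 and 9 in the same comparisons, with HSPA5 and DNAJA2 in each of them. Members at a few CPM, such as DNAJC22, DNAJB5, HSPA2 and HSPA6, have intervals too wide to place small folds.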
